A study of Mus musculus with 6 samples.

Results

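The genes described are 10 components of the ubiquitin ligases of striated muscle: the Asb adaptors Asb2, Asb8, Asb10, Asb11, Asb14, Asb15 and Asb18, and the ligase genes Fbxo32, Trim63 and Trim54. They were picked by symbol from a list that was selected on the CCN3 minus PBS differences of these same libraries, with no fixed threshold, and all 10 were among the 15909 genes of the deposited table. Their differences between the groups are therefore given as a description, with no p-values, and where a gene is said to have passed in the fit over all genes, that too describes the values and is no independent test.

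RNA came from the left ventricle of adult mice, 4 days after myocardial infarction (MI) was induced in both groups by ligating the left anterior descending artery. One group of 3 libraries came from mice injected intraperitoneally with recombinant human CCN3, a secreted matricellular protein, at 6 µg/kg, and the other group of 3 from mice injected with the vehicle PBS. The sources differ on dosing: the labels give daily injection over 4 days, and the study describes a shorter run begun the day after MI. Strain was not given for these libraries, the methods naming C57/B6J mice for CCN3 dosing, and no uninjured ventricle was analysed here. The libraries are called biological replicates, so p-values measure only the spread between these samples.

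A ubiquitin ligase attaches ubiquitin to a protein and so marks it, in many cases, for the proteasome. Asb proteins are adaptors: ankyrin repeats bind the substrate, and a SOCS box at the C-terminal end docks onto elongin B, elongin C and the cullin Cul5. Fbxo32, also called atrogin-1 or MAFbx, is the F-box adaptor of a cullin ligase of the SCF type. Trim63 (MuRF1) and Trim54 (MuRF3) are RING ligases of muscle, and Trim63 binds titin and other sarcomere proteins. In wasting muscle Fbxo32 and Trim63 are induced by FoxO transcription factors, and both serve as standard markers of atrophy.

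The genes lie on 8 chromosomes of the GRCm39 assembly, and each is protein-coding in GENCODE M39. Among the Asb genes, Asb14 lies on chromosome 14 from 26616514 to 26638732, Asb15 on chromosome 6 from 24528143 to 24573176 and Asb10 on chromosome 5 from 24737662 to 24746006. Asb2 spans 103283687 to 103334012 of chromosome 12, Asb8 98032513 to 98063512 of chromosome 15, Asb11 163219902 to 163242554 of chromosome X and Asb18 89874473 to 89942388 of chromosome 1. Of the ligases, Trim63 lies on chromosome 4 from 134042393 to 134056948, Trim54 on chromosome 5 from 31273911 to 31298846 and Fbxo32 on chromosome 15 from 58039275 to 58078741. Their canonical transcripts have between 4 exons (Asb8) and 10 exons (Asb2, Asb14 and Asb15).

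The region around each start site was searched because these genes were grouped as ligase components of muscle. The window ran from 250 bases before to 50 bases after the start of the canonical GENCODE transcript, which for Asb2, Asb8 and Asb10 is not the outermost start of the gene. The same window was searched in 21757 protein-coding genes, on both strands. The E box, CANNTG, the site of muscle bHLH factors, was found in 8 of the 10 genes and in 70.6% of all promoters, and was missing from the windows of Asb8 and Asb11. The 100 bases before the start of Asb14 and of Asb15 and 30 bases around an E box of Asb10 are shown, these being the genes with the largest differences. E boxes are in capitals, and those of Asb14 overlap.

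Asb14, chr14:26616414-26616513, plus strand: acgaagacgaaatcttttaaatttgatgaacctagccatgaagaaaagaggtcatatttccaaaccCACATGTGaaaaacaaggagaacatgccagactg
Asb15, chr6:24528043-24528142, plus strand: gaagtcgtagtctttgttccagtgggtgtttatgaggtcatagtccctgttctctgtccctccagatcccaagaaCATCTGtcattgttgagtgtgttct
Asb10, chr5:24745669-24745698, minus strand: tggagagccggaCAGCTGagcctcgctgga

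The core FoxO motif GTAAACA was present in 2 of the 10 genes, Trim63 and Asb18, and in 3.15% of all promoters, and it was not found in the window of Fbxo32. The MCAT motif CATTCC, read by TEAD factors, was present in Asb8, Trim63 and Trim54 and in 14% of all promoters. The MEF2 motif was found in Asb14, from base 28 after the start, and in Asb18, against 2.96% of all promoters. The TATA motif TATAAA was found in 4 genes (Asb14, Asb15, Asb18 and Trim63; 13.2% of all promoters), in part inside the MEF2 matches. Neither the CArG motif (1.54% of all promoters) nor the ERR motif AAGGTCA (4.48%) was found in any of the 10 windows. These letter matches are not evidence of binding. The matches of the FoxO, MCAT and MEF2 motifs that lie before the start are printed with 30 bases of the strand of the gene and the motif in capitals.

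Trim63, FoxO, chr4:134042226-134042255, plus strand: cagtctgttctTGTTTACgacccccacggc
Asb18, FoxO, chr1:89942553-89942582, minus strand: aaccctctcaaGTAAACAaagtcacctcta
Trim63, MCAT, chr4:134042339-134042368, plus strand: cagcctggctgcGGAATGctcagctggtcc
Trim54, MCAT, chr5:31273781-31273810, plus strand: tgagccccatacCATTCCtagccacccctt
Trim54, MCAT, chr5:31273869-31273898, plus strand: aaattgggaactGGAATGtcacacggatgc
Asb8, MCAT, chr15:98043674-98043703, minus strand: agcagcgacaggGGAATGcgtccagctcct
Asb18, MEF2, chr1:89942389-89942418, minus strand: cggtaacccagccctgattCTATTTATAGc

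The deposited values are log2 CPM, read counts scaled to library size on a log2 scale. Before deposit 2 estimated factors of unwanted variation (RUV) were taken out of them, so SDs cover only the spread that was left. Read depth is unknown from these values. The libraries summed to between 1001644 and 1031634 CPM, and their correlations with each other across genes ranged from 0.989 to 0.998. Of 16 cardiomyocyte markers all were measured, as the label of ventricle requires.

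Levels were compared between the genes per length of the canonical transcript, as log2 CPM per kb, a quantity the list was not drawn up by. In PBS treated ventricles Trim63 was highest, at 6.42 ± 0.13 log2 CPM per kb (SD, n = 3), or 85.4 CPM per kb. Asb11 at 5.60 ± 0.05, Asb2 at 5.46 ± 0.14 and Asb14 at 5.13 ± 0.23 followed. Libraries of Asb11 and Asb2 overlapped, and which gene was higher differed between libraries. The ranges of Asb2 and Asb14 overlapped too, but within each PBS library Asb2 was higher (5.62 against 5.36, 5.35 against 4.90 and 5.41 against 5.14). Asb8 at 4.81 ± 0.03 and Fbxo32 at 4.79 ± 0.10 log2 CPM per kb also overlapped. Trim54 lay below both at 4.40 ± 0.05, and Asb10 at 3.84 ± 0.15 and Asb15 at 3.56 ± 0.16 lay lower still. The ranges of Asb10 and Asb15 overlapped, but Asb10 was the higher one within each PBS library. Asb18 stood far below the others at -1.80 ± 0.03 log2 CPM per kb, or 0.287 CPM per kb. Its transcript of 7.30 kb also shared 9.88% of its 31-base words with transcripts of other genes, so its value is uncertain.

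In CCN3 treated ventricles the order of levels per length was the same except that Asb14 and Fbxo32 exchanged places. At 4.31 ± 0.22 log2 CPM per kb (SD, n = 3) Asb14 took place 6 of 10 instead of place 4, below Fbxo32 at 4.84 ± 0.11 and Asb8 at 4.81 ± 0.04. Its libraries now overlapped with those of Trim54. The order rests on the transcript chosen. With the longest coding transcript Asb2 took place 6 and Asb8 place 8 in PBS treated ventricles, while Trim63 stayed at place 1, Asb15 at place 9 and Asb18 at place 10.

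**Figure D1:**
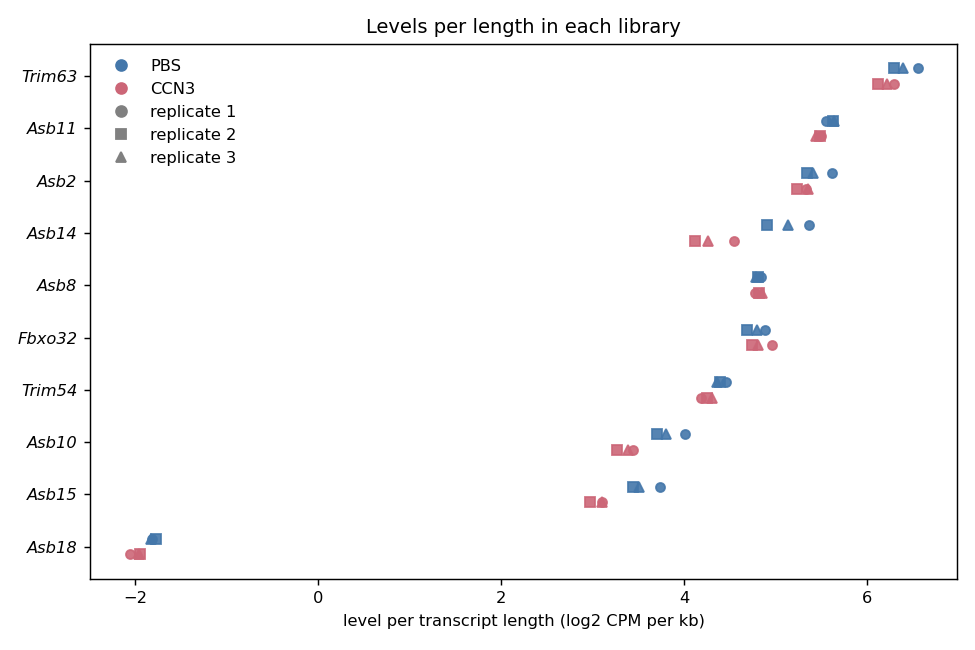
Level of each gene per transcript length in log2 CPM per kb (x axis), with 1 point for each library and genes ordered by their mean in PBS treated ventricles. Trim63 lies highest at 6.42 in PBS, Asb18 lowest at -1.80, and the CCN3 points of Asb14, at a mean of 4.31, lie below those of Asb8 and Fbxo32.

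Asb14, Asb15 and Asb10 had clearly lower values after CCN3 than after PBS, whereas the other Asb genes and the atrophy ligases differed little. Over the 10 genes the median difference (CCN3 minus PBS) was -0.17 on the log2 scale, compared with 0.00 over all genes (-0.0018 before rounding). In the limma fit over all genes a gene passed where its adjusted p was under 0.2, a false discovery rate taken from the study. By this rule 3 of the 10 genes passed as lower, Asb10, Asb14 and Asb15, and 0 as higher, beside 1.08% and 0.515% of all genes (1.6% in either direction). In 7 of the 10 genes each CCN3 library lay below each PBS library, and in 0 above, beside 18.2% and 15.1% of all genes (33.3% in either direction). The difference was negative in 8 of the 10 genes and in 50.6% of all genes. As the list was chosen with this comparison known, nothing is read from these shares. Neither Asb10, Asb14 nor Asb15 passed in the fits without PBS replicate 3 or without CCN3 replicate 3, and only Asb14 passed without CCN3 replicate 2. Without a mean-variance trend in limma 0 of the 10 passed.

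Asb14, an ankyrin repeat adaptor of the SOCS-box family, showed the largest difference of the 10. Its values were 6.41, 5.95 and 6.18 log2 CPM in PBS replicates 1 to 3, and 5.59, 5.16 and 5.31 in CCN3 replicates 1 to 3. The lowest PBS library was above the highest CCN3 library by more than the SD of either group. The difference was -0.83 ± 0.15 (SE), which puts the CCN3 level at 0.564 of the PBS level, and it ranged from -0.94 to -0.71 when 1 library was left out. From the lowest, this was place 101 among the differences of the 15909 genes.

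Asb15, a muscle member of the family, came next. It measured 5.84, 5.54 and 5.61 log2 CPM in the PBS libraries and 5.20, 5.07 and 5.20 in the CCN3 libraries. The groups did not overlap, and PBS replicate 1 stood above the other PBS libraries. The difference was -0.51 ± 0.10 (SE), to 0.704 of the PBS level, or -0.42 without PBS replicate 1.

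Asb10 gave 5.25, 4.95 and 5.05 log2 CPM with PBS and 4.68, 4.50 and 4.63 with CCN3. Its PBS and CCN3 libraries were again separate, with replicate 2 lowest in each group. The difference was -0.48 ± 0.10 (SE), to 0.718 of the PBS level, and it lay between -0.54 and -0.39 with 1 library left out. No 31-base word of the Asb10 or Asb14 transcript was found in a transcript of another gene, and 0.165% of those of Asb15 were.

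Asb2 directs filamins and, in muscle, desmin to degradation. A lncRNA gene, Gm15523, overlaps it on the opposite strand. Its values of 7.18, 6.91 and 6.97 log2 CPM in PBS and 6.90, 6.79 and 6.91 in CCN3 libraries overlapped. The difference of -0.15 ± 0.09 (SE) was -0.07 without PBS replicate 1, the only library well above the rest.

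Asb11 is an adaptor at the endoplasmic reticulum, and in zebrafish its counterpart acts in the Notch pathway. It was measured at 6.17, 6.26 and 6.26 log2 CPM in PBS and 6.12, 6.11 and 6.07 in CCN3 libraries. The groups lay apart by a narrow margin, with a difference of -0.13 ± 0.06 (SE). The low-expressed Asb18 had 1.05, 1.10 and 1.04 log2 CPM in PBS and 0.81, 0.92 and 0.92 in CCN3 libraries. These did not overlap either, but its difference of -0.18 carried an SE of 0.17, the largest of the 10.

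Asb8 did not separate the groups at all. It had 5.96, 5.93 and 5.91 log2 CPM in PBS and 5.89, 5.94 and 5.97 in CCN3 libraries. The highest and the lowest of these 6 libraries were both from CCN3, and the difference was 0.00 ± 0.06 (SE), between -0.02 and 0.02 with 1 library left out.

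Fbxo32, the atrophy F-box adaptor, was the most abundant of the 10 before correction for length. It measured 7.77, 7.57 and 7.69 log2 CPM in PBS and 7.84, 7.63 and 7.69 in CCN3 libraries. The groups overlapped almost fully, at a difference of 0.04 ± 0.09 (SE) that ran from -0.02 to 0.09 with 1 library left out. Reads of an opposite-strand lncRNA, Gm15943, could contribute, since 6.65% of the 31-base words of Fbxo32 occur on the opposite strand of other transcripts.

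Trim63, the MuRF1 ligase of troponin I and myosin chains, had 7.09, 6.83 and 6.93 log2 CPM in PBS and 6.82, 6.65 and 6.74 in CCN3 libraries. The highest CCN3 library, replicate 1, came within a small distance of the lowest PBS library, replicate 2, without reaching it. The difference was -0.21 ± 0.09 (SE), to 0.864 of the PBS level, and it was -0.14 without PBS replicate 1.

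Trim54, the MuRF3 ligase, had 6.24, 6.17 and 6.13 log2 CPM in PBS and 5.96, 6.03 and 6.08 in CCN3 libraries. The CCN3 libraries again lay just below those of PBS, with a difference of -0.15 ± 0.07 (SE). Of its 31-base words, 25.9% also occur on the opposite strand of other transcripts, chiefly Ucn and the lncRNA Gm15469. The library kit keeps strand, but whether the counting used it is not given in the sources used here.

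**Figure D2:**
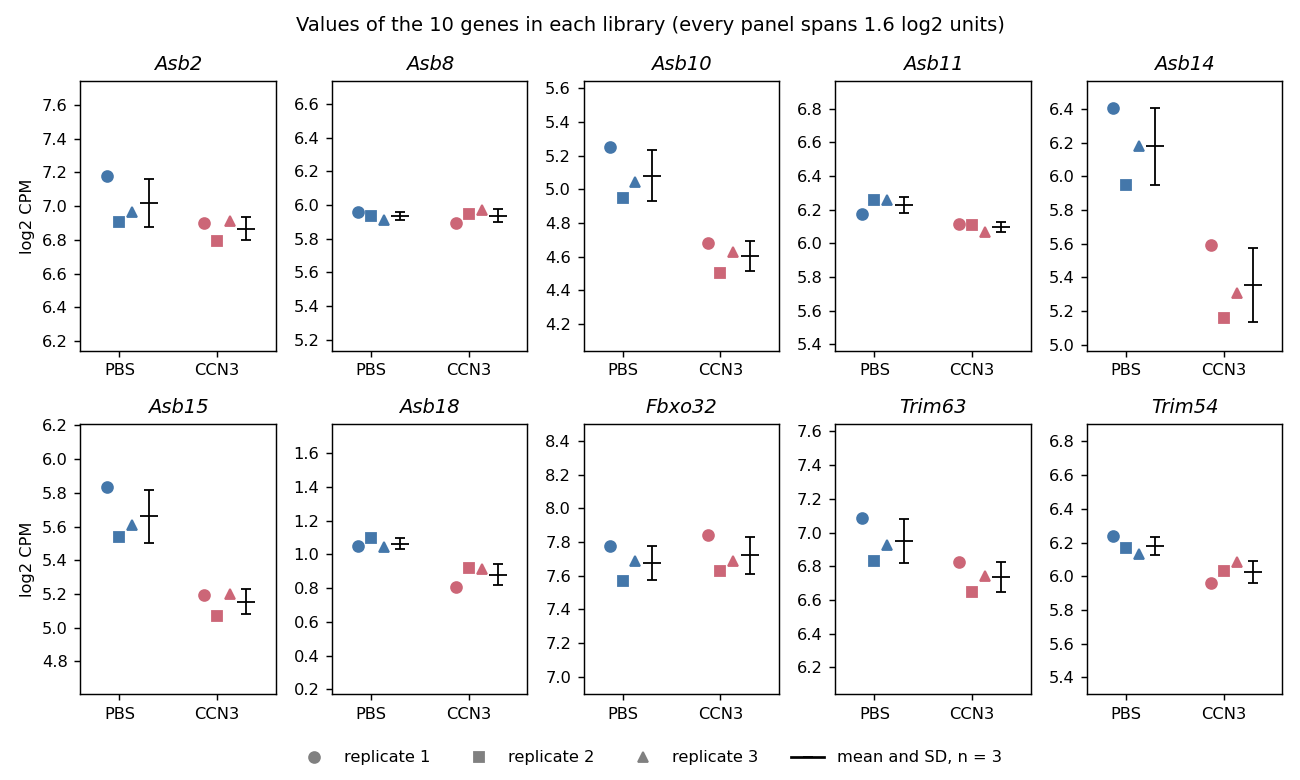
Value of each gene in each library in log2 CPM (y axis), for PBS and CCN3, with the mean and SD (n = 3) beside the points and the same span in every panel. Asb14, Asb15 and Asb10 fall clear of the PBS points, Asb2, Asb8 and Fbxo32 overlap, and the remaining genes are lower after CCN3 by 0.13 to 0.21 log2 units.

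The genes also differed in how they varied within a group. In 6 of them, Asb2, Asb10, Asb14, Asb15, Fbxo32 and Trim63, replicate 2 was the lowest library of each group and PBS replicate 1 the highest of its group. Asb8, Asb11, Asb18 and Trim54 did not follow this order. After removal of the factors, the values vary along only 2 directions within the groups, so shared orders among genes are frequent in this table.

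The mean of the 16 cardiomyocyte markers had the same order, since replicate 2 was lowest in each group. It was 11.58, 11.37 and 11.43 log2 CPM in PBS and 11.41, 11.30 and 11.38 in CCN3 libraries. Summed, these markers ran from 56140 to 66830 CPM in PBS and from 52230 to 57180 CPM in CCN3 libraries, with 8 of 16 higher and 8 lower after CCN3, and 1 of them, Tnni3, passed as lower. In bulk tissue, fewer cells of a type and less RNA per cell cannot be told apart.

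Relative to the mean of these markers, Asb14, Asb15 and Asb10 remained lower, at -0.73, -0.41 and -0.38 on the log2 scale. The differences of Trim63, Asb18, Trim54, Asb2 and Asb11 shrank to between -0.12 (Trim63) and -0.04 (Asb11). Asb8 then stood at 0.09 and Fbxo32 at 0.14. The median over the 10 genes was -0.08 on this basis. The mean of the markers takes in genes that moved both ways, 8 higher and 8 lower. Among the lower ones, Mb (-0.47), Pln (-0.45), Tnni3 (-0.44) and Myl2 (-0.41) had differences near those of Asb15 (-0.51) and Asb10 (-0.48). Among the higher ones, Actc1 stood at 0.30 and Ryr2 at 0.25. Asb15 and Asb10 were thus lower than the mean of the markers but not clearly lower than each marker. How far the amount of cardiomyocyte RNA enters the differences was otherwise not tested.

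**Figure D3:**
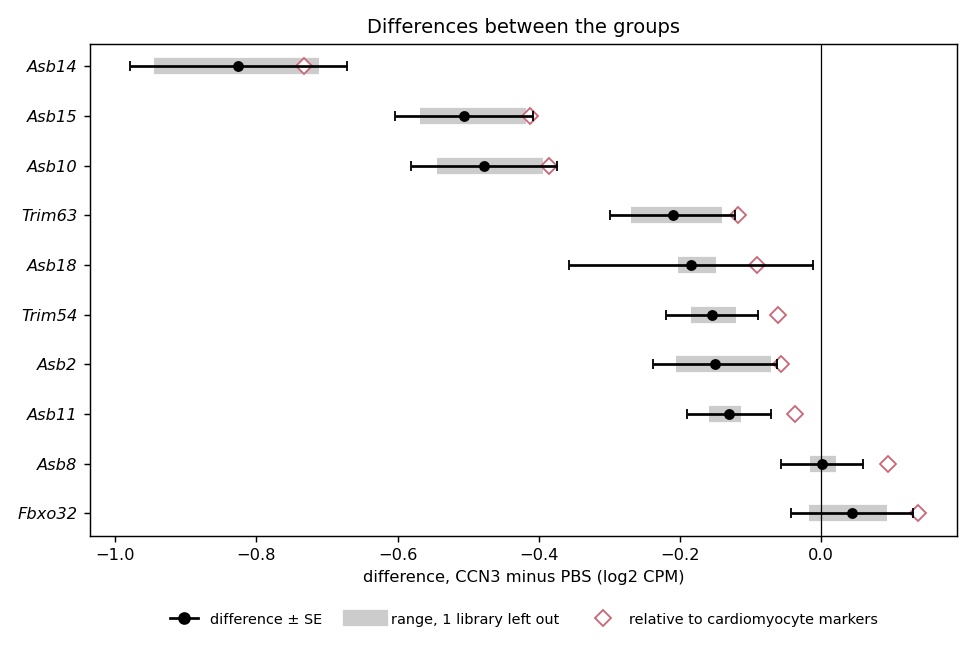
Difference of each gene, CCN3 minus PBS in log2 CPM (x axis), as a point with its SE, the range over the 6 fits that leave out 1 library (grey bar) and the difference relative to 16 cardiomyocyte markers (diamond). Asb14 lies at -0.83, Asb15 at -0.51 and Asb10 at -0.48 with every range below 0, whereas the ranges of Asb8 and Fbxo32 cross 0.

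Genes with the most similar profile over the 6 libraries were sought among 1522 other genes with a mean of at least 1 log2 CPM and an SD of at least 0.2. For Asb14 the closest were Lrrc14b, Pnck and Cacna1s, the last the L-type calcium channel subunit of skeletal muscle, each with Pearson r above 0.999. For Asb15 they were Nckap5, Klhdc1 and Scn4b, a beta subunit of voltage-gated sodium channels (r = 0.998 for Scn4b). For Asb10 they were Irf7, Fndc5 and Slc2a4, the insulin-regulated glucose transporter. The closest to Fbxo32 were Zfp618, Stap1 and Gm3636. Such values come easily here, with 138 genes above r = 0.95 for Asb14, 147 for Asb15, 152 for Asb10 and 48 for Fbxo32. Values of few libraries with 2 factors removed leave few independent directions. Group means were not subtracted first, so r also takes in the difference between the groups. That difference was negative in every gene named as closest to Asb14, Asb15 or Asb10.

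The rest of the pathway was taken from 15 lists by known role, on which tests were run over all genes. Of 225 further genes measured, 3 rose and 1 fell by the limma rule given above, beside 1.6% of all genes in either direction. Those with an unadjusted p under 0.05 made up 13.3% of these genes and 10.6% of all genes.

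Among the remaining Asb genes 8 of 11 were measured, and 0 passed in limma (1 with an unadjusted p under 0.05). Their median difference was -0.03. Asb5 had the largest, at -0.34 ± 0.12 (SE), with overlapping groups, and Asb13 stood at -0.21 ± 0.09. The median over the 7 Asb genes described above was -0.18, or -0.31 without the low-expressed Asb18 and -0.09 relative to the cardiomyocyte markers. Of 18 other SOCS-box genes 0 passed and 0 had an unadjusted p under 0.05 in limma. Neurl2, a muscle adaptor also called Ozz, was at -0.28 ± 0.12 and Spsb4 at 0.25 ± 0.14.

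The shared machinery of these ligases did not pass either. Of 15 genes for Cul5, Cul2, the elongins and the Nedd8 system, which switches cullins on, 0 passed in limma and 0 had an unadjusted p under 0.05. Nae1 (-0.14 ± 0.06) and Nedd8 (-0.12 ± 0.06) came closest. Of 9 genes of SCF ligases, the type that uses Fbxo32, 0 passed in limma (1 with an unadjusted p under 0.05). Skp2 was at 0.24 ± 0.10 and Cdc34 at -0.13 ± 0.06.

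Of 11 genes, Cul3 itself and muscle adaptors of it with a Kelch domain, 0 passed in limma (3 with an unadjusted p under 0.05). Their median difference was -0.15. Klhl33 (-0.46 ± 0.13, adjusted p = 0.288 in limma, lower in 3 of 3 CCN3 libraries) and Ivns1abp (-0.33 ± 0.11) had the smallest p. Among 25 other ligases of muscle 0 passed (2 with an unadjusted p under 0.05). These included Cblb, at 0.17 ± 0.06, and the mitochondrial ligase Mul1, at -0.17 ± 0.06.

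Ubiquitin itself, its transfer enzymes and the proteasome differed by small amounts. Of 17 genes of ubiquitin, E1 and E2 enzymes 0 passed in limma (2 with an unadjusted p under 0.05), and Ube2b, an E2 enzyme used in muscle, stood at -0.21 ± 0.05. Of the 14 genes of the 20S core and 21 of the 19S cap 0 passed and 0 had an unadjusted p under 0.05, with medians of -0.06 and 0.01. Psmb7 (-0.12 ± 0.06) and Psmb3 (-0.11 ± 0.07) led the core, and Psmc6 (-0.13 ± 0.06) and Psmd8 (0.11 ± 0.07) the cap. Of 7 activator and immunoproteasome genes 0 passed (1 with an unadjusted p under 0.05), with Psme4 at 0.23 ± 0.06 and Psme1 at -0.14 ± 0.06.

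The deubiquitinase list held the clearest rise. Uchl1, a ubiquitin hydrolase best known from neurons, had 3.79, 3.62 and 3.72 log2 CPM in PBS and 4.50, 4.32 and 4.37 in CCN3 libraries. It rose 1.61-fold (difference 0.68 ± 0.10 SE, adjusted p = 0.123 in limma), was higher in 3 of 3 CCN3 libraries and passed in all 6 fits that left out 1 library. It was the only one of 10 deubiquitinases that passed.

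Upstream of Fbxo32 and Trim63, the FoxO and insulin axis did not pass. Of 16 measured genes 0 passed in limma (4 with an unadjusted p under 0.05), among them the insulin receptor substrate Irs2 at 0.43 ± 0.10 (adjusted p = 0.215, higher in 3 of 3 CCN3 libraries) and Akt2 at -0.20 ± 0.06. The FoxO factors themselves, outside the rule for naming and added after their values were seen, were at 0.01 ± 0.06 (Foxo1), 0.02 ± 0.09 (Foxo3), -0.18 ± 0.08 (Foxo4) and -0.12 ± 0.25 (Foxo6). Of 15 FoxO targets 0 passed (2 with an unadjusted p under 0.05), with Sesn1 at -0.15 ± 0.06 and Gadd45a at -0.27 ± 0.11. Of 18 autophagy and lysosome genes 0 passed (3 with an unadjusted p under 0.05), with Wipi1 at 0.18 ± 0.07 and Map1lc3a at -0.18 ± 0.07.

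Among 22 measured substrates and partners of these ligases, 2 rose and 1 fell in limma, beside 1.6% of all genes in either direction, and 9 had an unadjusted p under 0.05. Flnc, the muscle filamin and a target of Asb2, had 7.73, 7.64 and 7.58 log2 CPM in PBS and 8.02, 8.15 and 8.23 in CCN3 libraries, a rise of 0.48 ± 0.08 (SE, adjusted p = 0.156 in limma, higher in 3 of 3 CCN3 libraries). Desmin, another Asb2 target and the intermediate filament of muscle, rose at the mRNA level from 10.05 ± 0.03 to 10.48 ± 0.06 log2 CPM (SD, n = 3; Des, adjusted p = 0.170). Cardiac troponin I, a Trim63 target, fell from 10.71 ± 0.05 to 10.27 ± 0.05 log2 CPM (Tnni3, adjusted p = 0.177). These are transcript levels, and the ligases act on the proteins. Without PBS replicate 3 none of Flnc, Des and Tnni3 passed, and Des and Tnni3 did not pass without CCN3 replicate 3 either. Without a mean-variance trend in limma 0 of the 225 genes passed.

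**Figure D4:**
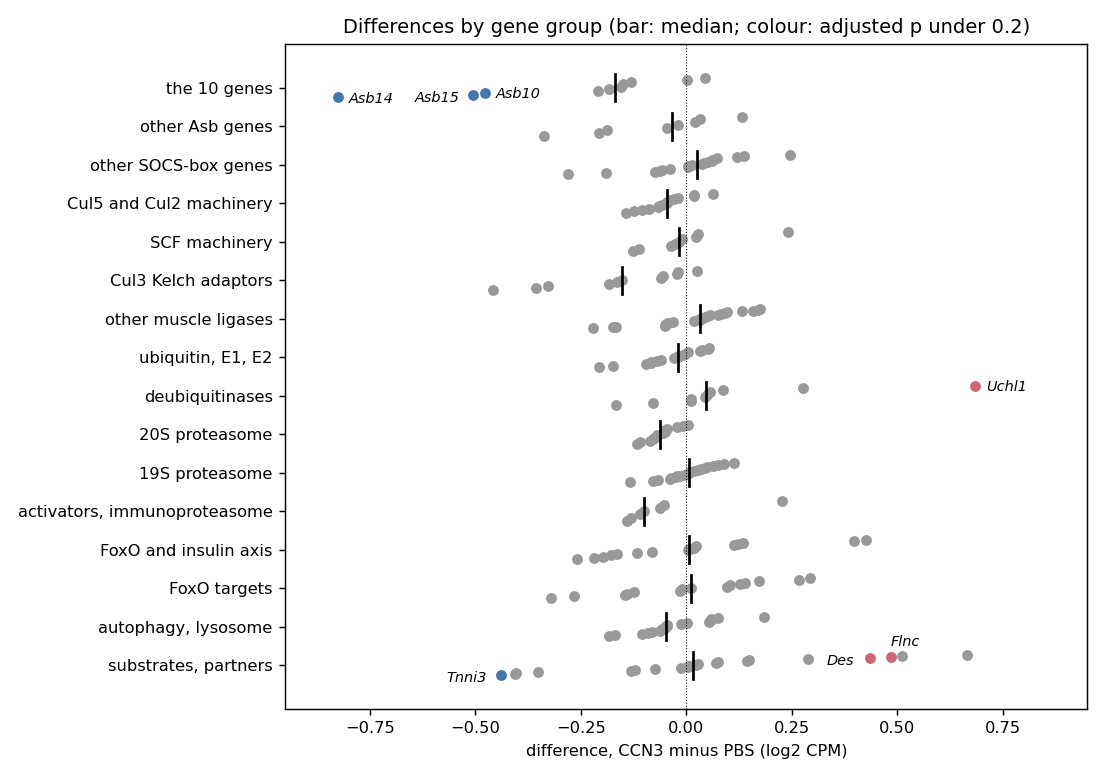
Difference of each gene, CCN3 minus PBS in log2 CPM (x axis), for the 10 genes and for 15 lists of the pathway, with 1 point a gene, a bar at each median and named coloured points for genes that passed in limma (adjusted p under 0.2). The 10 genes have a median of -0.17, the other Asb genes -0.03, and Uchl1, Flnc, Des and Tnni3 are the coloured points outside the 10 genes.

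Several of these genes are also active in skeletal muscle, so markers of that tissue were measured. Of 16 such markers 7 were in the table and 9 were not. Those missing from the table were Myh1, Myh2, Myh4, Myh3, Myh8, Tnnc2, Atp2a1 and the factors Myod1 and Myog. The first 3 are the adult fast myosins. The 7 summed to between 94.8 and 164.2 CPM in PBS and between 216.3 and 335.2 CPM in CCN3 libraries, most of it from Acta1, which rose by 1.12 ± 0.23 on the log2 scale (SE, adjusted p = 0.192 in limma). Whether the Acta1 RNA came from skeletal muscle or from the heart itself was not tested. Without Acta1 the other 6 summed to 8.77, 5.94 and 9.28 CPM in PBS and 28.0, 12.2 and 12.4 CPM in CCN3 libraries. All 7 had a positive difference, opposite in sign to Asb14, Asb15 and Asb10, and their part in the values of the 10 genes was not tested. The summed markers of fibroblasts (15980 to 19750 CPM in PBS, 17700 to 19770 CPM in CCN3) and of neutrophils (52.7 to 91.6 and 61.3 to 79.8 CPM) overlapped between the groups. Singly, the fibroblast markers Pdgfra, Tcf21, Col1a1 and Col1a2 were higher in each CCN3 library than in any PBS library. Dcn was lower in each, Lum, Col3a1 and Postn overlapped, and 0 of 8 passed. Groups lay apart in this way in 33.3% of all genes. Macrophage markers summed to 3308 to 3524 and 3102 to 3351 CPM. Mural markers summed to 1232 to 1506 and 1003 to 1109 CPM, lower in each CCN3 library, with 1 of 6 genes (Kcnj8) passing as lower. Most of the mural sum came from Rgs5 (-0.44), which like Kcnj8 was lower in each CCN3 library than in any PBS library. Myh11, Notch3, Cspg4 and Tagln overlapped, the last 2 with positive differences (0.21 and 0.14). Endothelial markers summed to 1047 to 1122 and 953.2 to 1111 CPM and lymphocyte markers to 27.8 to 29.5 and 25.2 to 28.1 CPM.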

How the data were processed

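RNA was read single-end from stranded mRNA libraries. The authors quantified transcripts of GRCm39 with Salmon 1.4.0 (version per the submitters' processing notes), took out 2 factors of unwanted variation and deposited log2 CPM values per gene. Their low-count filter and prior count are not given in the sources used here. A further deposited table, of the authors' own edgeR fold changes and p-values, was not used.

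After group means were subtracted, the values did not vary along 2 directions (singular value below 1e-06 of the largest). Both were added to treatment in a linear model, leaving 2 residual degrees of freedom beside 4.47 from the prior. By construction these directions are unrelated to treatment. The SEs therefore do not include any overlap of the removed factors with treatment, and SEs and p-values may be too small. The model was fitted with limma 3.58.1 in R 4.3.3 (two-sided moderated test with trend, p-values adjusted by Benjamini-Hochberg over 15909 genes, threshold 0.2). It stands in for the count model of the study, as read depth is unknown. It was tested on simulated data, but only with removed directions unrelated to treatment. Such data cannot show whether the p-values hold where the removed factors overlapped with treatment. Alternatives changed the model, the scale, the filter, the centring or the libraries.

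The genes, lists and alternatives were chosen with earlier results of these data known. Genes named were all 10 genes, the passing genes of each list or else the 2 with the smallest p, and the 3 most similar profiles, except 1 gene that is not reported here. The lists for the pathway and for cell types were written by known role. Some single cell type markers were named outside the rule for naming. Transcripts, positions and sequences came from GENCODE M39 and GRCm39.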

Additional observations from a re-analysis of the deposited data

How the results depend on the processing

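The differences of Asb14, Asb15 and Asb10 stayed negative and within 1 SD of the values given in the 9 alternatives that can move them. In the other 4 of 13 (other models or the filter) they are the same by construction. Whether a gene passed depended on the fit. With treatment only, ignoring the removed directions, 4771 of all genes, 66 pathway genes and 7 of the 10 genes passed. With the replicate number as a replicate block, also without those directions, 5932, 85 and 8 passed. Deviations of same-numbered libraries from their group means correlated for number 2 (r = 0.968), hardly for 1 (r = 0.127) and inversely for 3 (r = -0.977). PBS replicate 3 and CCN3 replicate 1, of different number, had r = 0.625. The values vary along only 2 directions within the groups, so these r values cannot show whether the numbers pair the libraries. The treatment-only and block models both leave out directions along which the values cannot vary, so their residual spread is too small. Without a mean-variance trend 1, 0 and 0 passed (the cause was not tested). With 1 library left out, the counts ran from 50 to 2219 for all genes (254 with all libraries), from 1 to 42 for pathway genes and from 0 to 4 for the 10 genes, lowest without PBS replicate 3 and highest without PBS replicate 1.

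Differences near 0 changed sign with 1 library left out, between -0.016 and 0.021 for Asb8 and between -0.017 and 0.093 for Fbxo32. Relative to the cardiomyocyte markers the median of the 10 genes was -0.076 instead of -0.17. A minimum mean of 1 log2 CPM removed Asb18 (mean 0.97). Asb10 no longer passed after median centring of the libraries or on a log2(CPM + 1) scale. Depth is unknown, so counting error could not be given.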
